A study of Mus musculus with 9 samples.

Results

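Fibroblast growth factors (FGFs), their receptors and the genes that FGF signalling switches on were followed through a TWIST1 chromatin immunoprecipitation sequencing (ChIP-seq) series in mouse embryoid bodies. The set was given by name and held 36 genes: 18 genes of secreted FGFs, 4 of intracellular FGFs, 4 of receptors, 7 Sprouty and Spred genes and 3 Etv genes. A peak was counted with a gene when its summit lay inside the gene body or, outside all genes, when that gene was the nearest within 100 kb. Of the 36 genes 35 could be placed on a main chromosome, out of 21774 protein-coding genes in all. Spry3, a Sprouty gene, is listed on a scaffold and was not analysed here.

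The overexpressing cells (OE) were embryonic stem cells of genotype Twist1-/- with a doxycycline-inducible Flag-Twist1, so they made TWIST1 only from the transgene. The control cells (KO) were Twist1-/- without the inducible cassette, and both received doxycycline for the last 16 h of 3 days of differentiation. All samples carry the strain label C57BL/6. The labels name embryoid bodies and the study's design text names neuroepithelium, and a peak list holds no expression with which to check the cell type. How many clones stand behind each line is not stated in the labels. There are 9 libraries: 4 of OE ChIP, 2 of KO ChIP, 1 of KO input, and 2 of OE input that were left unused. The ChIP antibody was against TWIST1 in both genotypes.

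FGFs are secreted signals that bind receptor tyrosine kinases together with heparan sulfate and drive the RAS and MAP kinase cascade. The cascade switches on the ETS factor genes Etv4 and Etv5 and also the Sprouty and Spred genes, whose proteins damp the same cascade. In pluripotent cells FGF4 moves cells towards differentiation, and in the embryo FGFs pattern the neural plate, limbs and skull. TWIST1 is a basic helix-loop-helix factor of mesenchyme and cranial development that binds the E-box, CANNTG, as a dimer.

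The OE lists held 22388, 106821, 87441 and 14160 peaks in libraries 1 to 4, the KO lists 104 and 71 in libraries 2 and 3, and the input list 1774. The lists carry no read totals, but the local background at peaks can be recovered as a number of overlapping fragments. OE libraries 1 and 4 had 1.00 and 1.20, OE libraries 2 and 3 had 5.38 and 5.29. The KO ChIP libraries had 4.73 and 5.09, the KO input 6.46. The 2 OE libraries with the higher background thus also had the longer lists. Fold enrichment is the peak caller's linear ratio of a summit to its local background, given by the authors for each peak. Since backgrounds differ so much, folds of different libraries are compared only descriptively, and ranks are given as percentiles within each library's own list. Depth and replicate cannot be told apart where OE libraries 1 and 4 differ from 2 and 3.

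FGF genes had peaks in every OE library and none in either KO library. OE libraries 1 to 4 held 69, 308, 271 and 52 peaks at the 35 genes, a mean of 175 ± 133 (SD, n = 4). KO libraries 2 and 3 held 0 and 0, and the KO input held 4. The groups did not overlap. On log2 of the peak number plus 1, OE exceeded KO by 7.05, with an exact permutation p of 0.0667, two-sided, over 15 splits. This is the smallest p that 4 against 2 libraries allow, so the test cannot pass 0.05. Without log2 the exact permutation p was 0.133. The difference follows the length of the lists. The FGF genes held 0.309%, 0.289%, 0.310% and 0.369% of the peaks in OE libraries 1 to 4, near the 0.278% of the assignable genome that belongs to them. The peak shares are of all peaks on the main chromosomes, also those counted with no gene, so the comparison is rough. At the mean OE share the KO lists would hold 0.300 and 0.198 peaks at FGF genes.

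**Figure D1:**
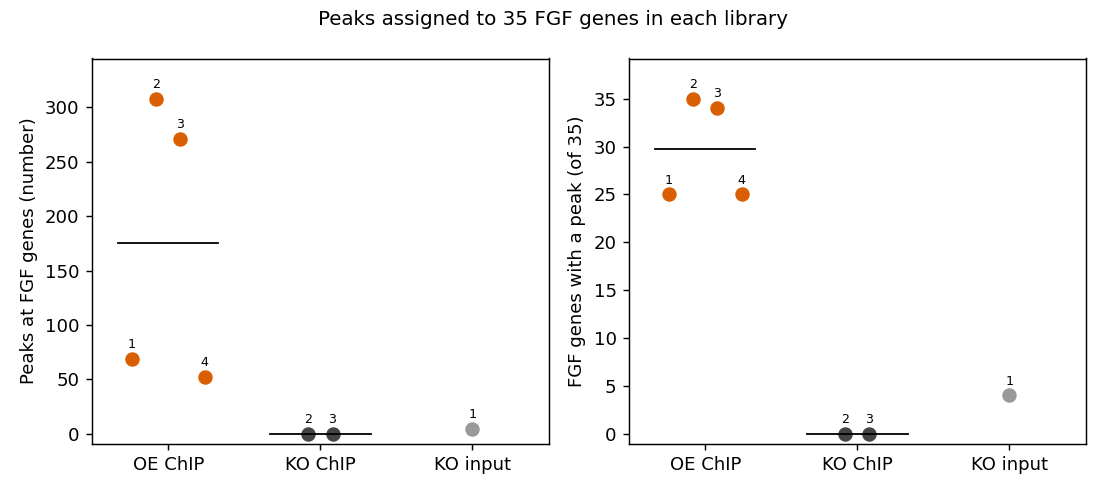
Number of peaks at the 35 FGF genes (left) and number of these genes with at least 1 peak (right), by group. Each point is a library with its replicate number and lines are group means. OE libraries 2 and 3 lie highest at 308 and 271 peaks, OE libraries 1 and 4 at 69 and 52, and both KO libraries at 0.

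Between 25 and 35 of the FGF genes had a peak in a given OE library. The counts were 25, 35, 34 and 25 of 35 in OE libraries 1 to 4. Over all protein-coding genes the share with a peak was 47.5%, 81.0%, 77.9% and 37.6% in the same libraries, so most genes of any kind had a peak in libraries 2 and 3. In each KO ChIP library 0 of 35 had a peak, against 0.207% and 0.0919% of all genes. In the KO input 4 of 35 had one, against 5.31% of all genes. The mean of 29.8 ± 5.50 in OE (SD, n = 4) against 0 in KO gave an exact permutation p of 0.0667, two-sided. A peak in every OE library and in neither KO library was found for 24 of the 35, and for 35.1% of all genes. The KO lists start at a stricter level (lowest −log10 p 7.48 and 7.14) than those of OE libraries 2 and 3 (3.67 and 3.72). With 7.48 required of every ChIP library, a limit chosen after seeing the data, the OE libraries still held 65, 256, 218 and 48 peaks at the FGF genes and the KO libraries 0.

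A region was called reproducible where a chain of overlapping peaks held peaks of all 4 OE libraries and no KO or input peak lay. Peaks in such a chain need not all overlap each other. Of the 35 FGF genes 21 (60%) had at least 1 reproducible region, beside 30.4% of all 21774 genes. These genes held 41 of the 10375 reproducible regions: 8 genes had 1, 8 had 2 and 5 had 3 or more. Of the regions counted with any gene the FGF genes held 0.436%, beside 0.278% of the assignable genome. A long gene with empty surroundings collects more regions. The stretch of genome whose peaks would be given to a gene had a median of 75.8 kb for the FGF genes and 45.8 kb for all genes, and the part of this in the counts was not tested. Per Mb of such stretch the FGF genes held 7.68 regions and all genes 4.99, where a region inside overlapping genes counts once for each (9592 pairs of a gene and a region). By role, receptor genes held 17.5 per Mb, Sprouty and Spred genes 11.6, secreted FGF genes 11.3, Etv genes 6.58 and the very long intracellular FGF genes 2.24. The number of FGF genes with a region was 34 (97.1%, against 74.7% of all genes) when only OE libraries 2 and 3 were required, a choice made after seeing the data. It was 14 (40%, against 15.8%) when the OE lists were cut to equal length.

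**Figure D2:**
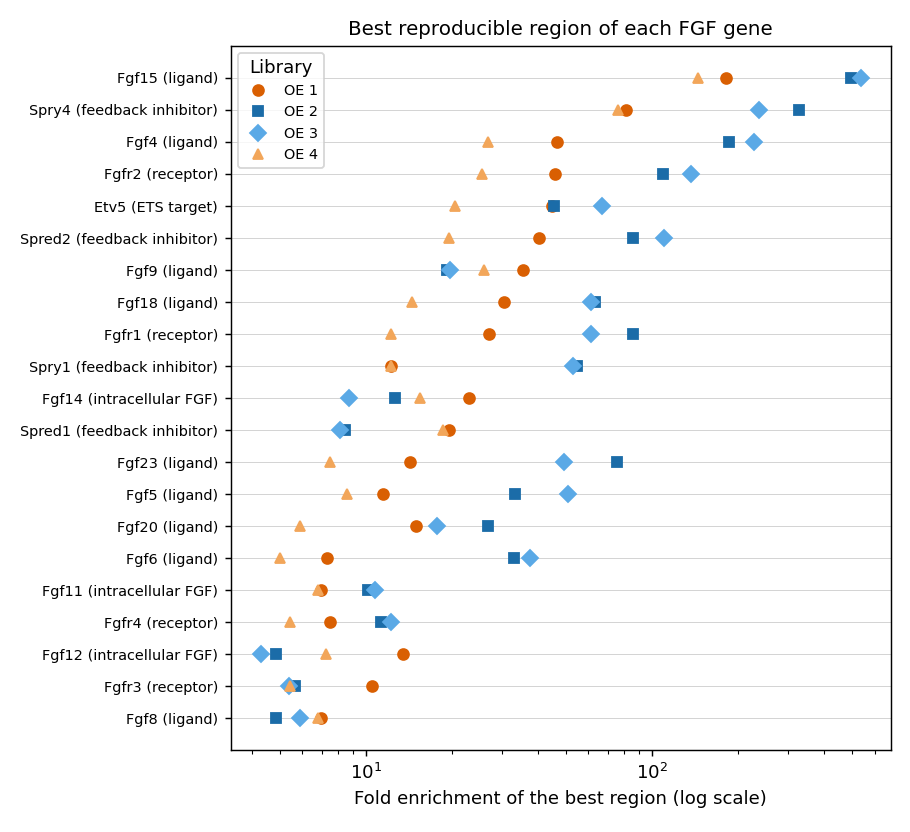
Fold enrichment (log scale) of the best reproducible region of each of 21 FGF genes in the 4 OE libraries, ordered by mean percentile of fold. Fgf15 stands at the top with folds of 145 to 536 and Fgf8 at the bottom with 4.86 to 6.99.

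Where regions lay at a start site, the sequence before the site could be read. RefSeq's table of start sites (GRCm38.p6) held 26 of the 35 genes with 35 start sites, of which 14 lay under a reproducible region, beside 12.5% of 32851 start sites of all genes. The 14 belong to 10 genes, some with several start sites under a region, so they are not independent. Fgf21 is among these genes although its region was counted with Fut1. The 250 bases before the start are shown for 4 genes with an E-box there, chosen after their summits were seen, and, for contrast, for Fgf18 with none. Each runs 5′ to 3′ on the gene's own strand, with E-boxes (CANNTG) in capitals.
Etv5, chr16:22439571-22439820, minus strand: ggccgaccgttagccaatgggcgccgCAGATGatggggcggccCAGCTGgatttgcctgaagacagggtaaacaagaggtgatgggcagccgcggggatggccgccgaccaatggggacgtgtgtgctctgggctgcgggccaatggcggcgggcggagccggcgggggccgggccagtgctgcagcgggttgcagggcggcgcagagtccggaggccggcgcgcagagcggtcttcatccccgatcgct
Fgf4, chr7:144861136-144861385, plus strand: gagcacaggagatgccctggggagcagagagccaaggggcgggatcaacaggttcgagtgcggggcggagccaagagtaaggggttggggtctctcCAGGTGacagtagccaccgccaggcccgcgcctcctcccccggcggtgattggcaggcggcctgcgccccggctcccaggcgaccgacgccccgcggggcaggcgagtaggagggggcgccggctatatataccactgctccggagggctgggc
Spry1, chr3:37639697-37639946, plus strand: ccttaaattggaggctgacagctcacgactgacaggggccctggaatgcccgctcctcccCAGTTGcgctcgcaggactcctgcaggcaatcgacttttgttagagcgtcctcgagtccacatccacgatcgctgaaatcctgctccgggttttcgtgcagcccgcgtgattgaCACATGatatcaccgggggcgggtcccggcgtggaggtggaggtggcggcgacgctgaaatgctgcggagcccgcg
Fgfr3, chr5:33721474-33721723, plus strand: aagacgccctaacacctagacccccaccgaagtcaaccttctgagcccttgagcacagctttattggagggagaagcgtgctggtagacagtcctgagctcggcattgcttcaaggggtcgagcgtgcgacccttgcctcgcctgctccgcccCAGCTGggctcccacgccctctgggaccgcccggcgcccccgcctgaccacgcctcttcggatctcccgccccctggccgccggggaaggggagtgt
Fgf18, chr11:33147401-33147650, minus strand: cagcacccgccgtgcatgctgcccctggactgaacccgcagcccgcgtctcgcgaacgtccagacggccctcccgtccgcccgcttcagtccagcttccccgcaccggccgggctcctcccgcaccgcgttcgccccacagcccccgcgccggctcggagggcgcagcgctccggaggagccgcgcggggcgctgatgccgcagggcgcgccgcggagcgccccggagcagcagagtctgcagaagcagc

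Among 7 FGF start sites with an E-box and a region counted with the gene, the summits of OE libraries 2 and 3 lay near an E-box, and those of libraries 1 and 4 farther off, at Etv5, Fgf4 and Spry1. The other 4 did not show this. At Etv5 the E-boxes CAGATG and CAGCTG begin 224 and 207 bases before the start. The summits of OE libraries 2 and 3 lay 1 and 7 bp from CAGCTG, and those of OE libraries 1 and 4 lay 125 and 117 bp from it. At Fgf4 the E-box CAGGTG begins 154 bases before the start, and the summits of OE libraries 1 to 4 lay 331, 38, 33 and 380 bp from it. At Spry1 the E-box CACATG begins 76 bases before the start, and the distances were 685, 11, 2 and 770 bp. Fgfr3 differed from these, with 75, 37, 145 and 185 bp to its CAGCTG. At Fgfr2 all summits lay far from its CAACTG, at 770, 633, 574 and 799 bp. At the inner start sites of Fgf12 the distances were 394, 566, 362 and 383 bp to a CAACTG and 244, 389, 368 and 270 bp to a CATATG, so at the latter OE libraries 1 and 4 were the nearer. E-boxes are common: CANNTG was found on either strand in the 250 bases before 66.2% of all start sites and before 20 of the 35 of FGF genes. CATCTG (or its complement CAGATG) was found in 14.4%, CAGCTG in 13.0%, CACCTG (or CAGGTG) in 17.2%, CACGTG in 6.02% and CATATG in 3.46%, all of them forms of CANNTG. Of all start sites under a reproducible region 57.5% had a CANNTG, below the 66.2% of all start sites. Of the 14 of FGF genes under a region 8 had one. A match describes these letters and is not evidence of a bound site.

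Secreted FGF genes were led by Fgf15 and Fgf4, neighbours on chromosome 7. Of 18 such genes 9 had a region: Fgf4, Fgf5, Fgf6, Fgf8, Fgf9, Fgf15, Fgf18, Fgf20 and Fgf23. Fgf15, an endocrine FGF of the gut that is also made in the embryonic brain, had 4 regions. Its best region (chr7:144887254-144890169, mm10) lay 7714 bp from the gene, outside all genes. Its fold was 182, 496, 536 and 145 in OE libraries 1 to 4 (mean 340 ± 205, SD, n = 4). Its mean percentile over the OE lists was 99.8, and it was 45th among all reproducible regions. The pileup at its summit, recovered from the caller's values, was 364, 3166, 3371 and 318 fragments, and the 4 summits lay within 14 bp.

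Fgf4, the FGF that embryonic stem cells themselves secrete, had 2 regions. The stronger (chr7:144875884-144877661) lay 11605 bp beyond the gene and 15464 bp from its start site. It had folds of 46.4, 187, 227 and 26.8 (mean 122 ± 100.0, SD, n = 4), with summits within 5 bp of each other. The other covered the start site itself (chr7:144859970-144861849), whose sequence is shown above, with folds of 18.0, 10.3, 17.2 and 18.6. At this region the libraries with the lower background had folds as high as the others. Fgf3, Fgf4 and Fgf15 together span 62.3 kb. This stretch held 5 reproducible regions, and 1 more lay 1223 bp beyond the end of Fgf15. The density over all genes would give 0.311 for that length. The stretch was picked for its strong regions, so this comparison is only a description. Fgf3, an FGF of inner ear development, held a peak of all 4 OE libraries too (folds 9.48, 5.17, 5.56 and 9.53). An input peak with a fold of 3.08 lay under it, so it was left out.

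**Figure D3:**
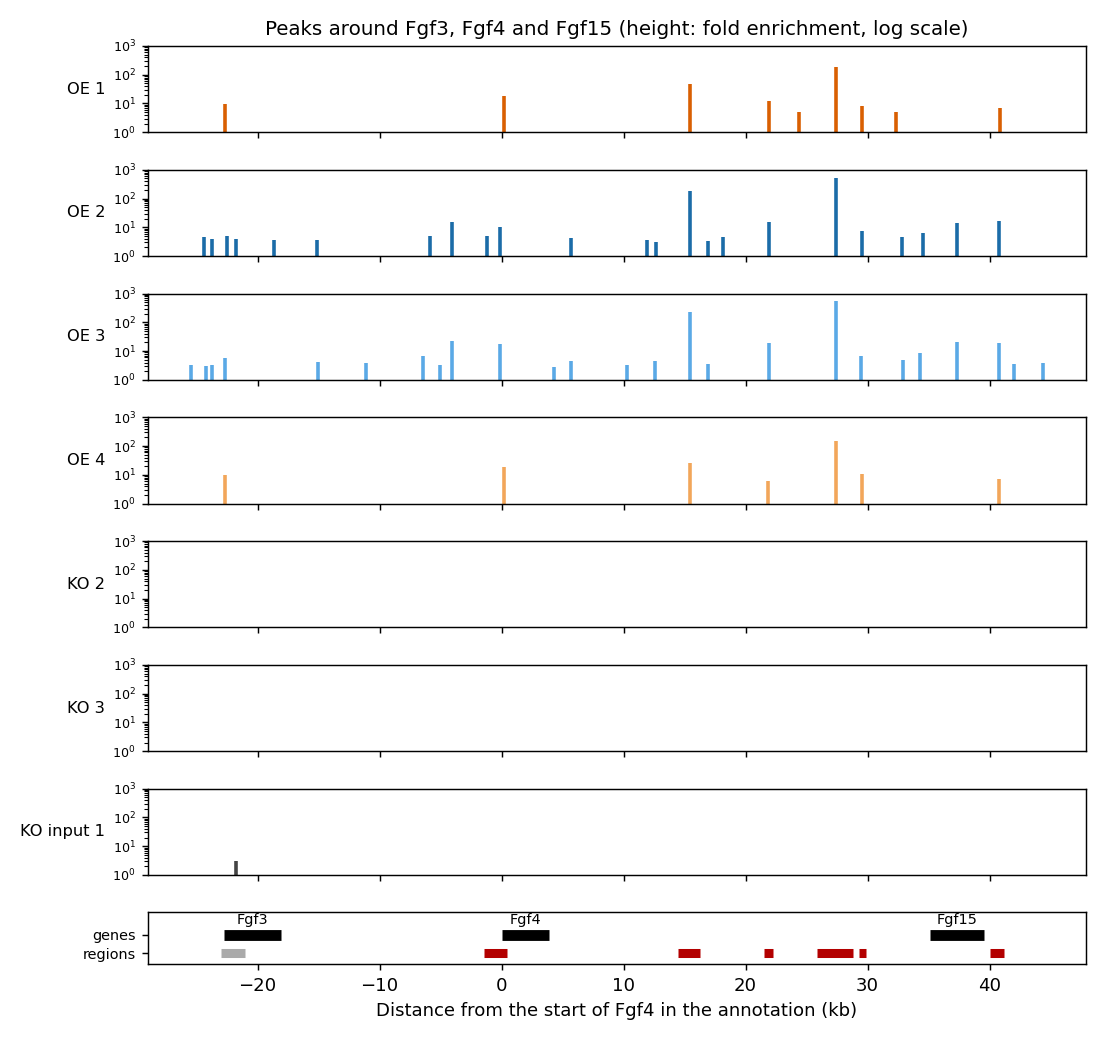
Peaks of each library around Fgf3, Fgf4 and Fgf15 by distance from the start of Fgf4 (kb), with fold enrichment as height (log scale). Black bars are genes, red bars reproducible regions and the grey bar a region left out for an input peak. The highest peak of each OE library stands 27.4 kb from the Fgf4 start, with folds of 145 to 536, and the KO ChIP libraries have no peak.

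Among the other secreted FGF genes, Fgf9 and Fgf18 ranked next. Fgf9, which supports mesenchyme growth in lung and gonad, had its best region inside the gene (chr14:58075984-58077726), 3814 bp after the start site. Its folds were 35.4, 19.3, 19.7 and 25.9 (mean 25.1 ± 7.54, SD, n = 4), so all OE libraries lay close together. Fgf18, an FGF of bone and cartilage, had its best region 38.7 kb from the gene (chr11:33076729-33079003) with folds of 30.4, 63.2, 61.3 and 14.5 (mean 42.4 ± 23.9, SD, n = 4). Its other region covered the start site (chr11:33146389-33148861) and had folds of 40.4, 8.15, 9.22 and 18.2. The order of the libraries was thus turned round between the distant region and the start site of the same gene.

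Fgf5, which marks the primed epiblast, had 2 regions of similar strength, the first 1750 bp inside the gene and the other 6835 bp outside. Their mean folds were 26.0 ± 19.9 and 24.0 ± 16.2 (SD, n = 4). Fgf6 and Fgf23, neighbours on chromosome 6, had 1 region each, with mean folds of 20.7 ± 16.9 and 36.5 ± 31.6. The Fgf23 region lay 21883 bp from Fgf23 and 26301 bp from Fgf6, so the assignment between these 2 genes is close. Fgf20 had its region 91343 bp away (16.4 ± 8.61), near the limit of 100 kb. The region of Fgf8, a signal of the midbrain-hindbrain border, was the weakest of the best regions, with folds of 6.99, 4.86, 5.88 and 6.81. Its mean percentile was 40.3, below the median of 71.5 for all reproducible regions.

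The other 9 secreted FGF genes had no reproducible region: Fgf1, Fgf2, Fgf3, Fgf7, Fgf10, Fgf16, Fgf17, Fgf21 and Fgf22. Most of these had peaks in OE libraries 2 and 3 alone. Fgf1 had 10 and 9 peaks there and none in libraries 1 and 4, Fgf10, the limb and lung bud signal, had 6 and 5, and Fgf7 had 1 and 1. Fgf16 had 3 and 3 with 1 in OE library 4. Fgf17 had 3 and 4, Fgf21 3 and 3 and Fgf22 2 and 2, with none in OE libraries 1 and 4. A strong reproducible region (chr7:45614866-45617811) nevertheless overlapped the window before the start site of Fgf21, an endocrine FGF of the liver. Its position, 1066 bp from that start site, was counted with Fut1 by the rule, and its folds were 242, 656, 720 and 189, above those of the best Fgf15 region in every OE library. Fgf2 had a peak in every OE library (2, 3, 3 and 1), but no position was shared by all 4. Its absence among the genes with a region thus rests on where the peaks lay, not on a library without a peak.

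All 4 receptor genes had a region, but Fgfr3 and Fgfr4 had none with −log10 q of at least 10 or with equal list lengths, and Fgfr3 none with summits within 100 bp. Fgfr2, whose protein serves epithelium and skull sutures, had 3, all inside the gene. The strongest (chr7:130250934-130253827) lay 14439 bp after the start site, with folds of 46.0, 110, 137 and 25.4 (mean 79.4 ± 52.3, SD, n = 4). Its region at the start site (chr7:130265959-130266943) had 26.5, 4.86, 8.42 and 17.7. As at Fgf18, OE libraries 1 and 4 were high at the start site and low at the other position relative to OE libraries 2 and 3. Near gene ends, the folds of OE libraries 1 and 4 were both above those of libraries 2 and 3 also at Fgf4, Fgf8, Spred1 and Etv5. This was not so at Fgfr3, Fgfr4, Spry1 and Spred2. Percentiles gave another picture. In mean percentile, libraries 1 and 4 were the higher at 3 of the 10 FGF gene regions near gene ends, beside 58.4% of all such regions. Fgfr1, the main FGF receptor of embryonic stem cells, had 3 regions. The strongest lay 4249 bp outside the gene (chr8:25512973-25515356) with folds of 27.0, 85.7, 61.5 and 12.3 (mean 46.6 ± 33.3, SD, n = 4). Another lay 38464 bp outside and the last 1120 bp inside the gene, with mean folds of 20.8 ± 4.01 and 14.7 ± 7.47. The summits of the last spread over 1539 bp, so its position, their mean, is only approximate.

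Fgfr3 and Fgfr4 had weaker regions. Fgfr3, a receptor that restrains cartilage growth, had its region on the start site, with folds of 10.5, 5.64, 5.40 and 5.45. Fgfr4 had its region 493 bp beyond the far end of the gene, 16434 bp from the start site, with a mean fold of 9.11 ± 3.19 (SD, n = 4). A region at the start of Fgfr4 was left out because an input peak with a fold of 4.02 lay under it.

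Feedback inhibitor genes were led by Spry4. Sprouty proteins block the cascade below the receptor, and Spred proteins bind RAS regulators. Spry4 had its best region 1998 bp outside the gene (chr18:38583005-38585645), with folds of 80.9, 326, 236 and 75.8 (mean 180 ± 123, SD, n = 4). It ranked at a mean percentile of 99.1 and its 4 summits lay within 6 bp. Spred2 had 4 regions, a number reached by 1.14% of all genes and, among the FGF genes, also by Fgf15. Its strongest lay 88207 bp before the start site (chr11:19835267-19837231), with 40.4, 86.2, 110 and 19.5 (mean 64.1 ± 41.6, SD, n = 4). The next gene, Actr2, was 226069 bp from it. Another lay 72909 bp before the start site, with 12.5, 38.9, 66.6 and 15.9. The last 2 lay 352 bp before the start site and 1067 bp after it, with mean folds of 41.4 ± 35.2 and 7.37 ± 3.70. In OE library 2 Spred2 held 40 of the 308 peaks at FGF genes, the most of any.

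Spry1 had its best region 27791 bp from the gene (chr3:37671772-37673049), with folds of 12.3, 54.9, 52.9 and 12.3 (mean 33.1 ± 24.0, SD, n = 4). OE libraries 2 and 3 were both above libraries 1 and 4 there. At the Spry1 start site the folds were 8.48, 6.27, 5.72 and 5.45, with OE library 1 the highest. This start-site region was lost without OE library 1. It was also lost with −log10 q of at least 10, with summits within 100 bp and with equal list lengths. Spred1 had 1 region, over its start site, with 19.5, 8.46, 8.10 and 18.6; without OE library 3 it had 0. At Spred1 libraries 1 and 4 were the higher. Spry2 and Spred3 had no reproducible region. Spry2 had a strong peak of all 4 OE libraries 754 bp from the gene (38.9, 9.25, 12.6 and 19.5), which was left out because the input had a peak there with a fold of 3.75. Spred3 had 5 peaks in each of OE libraries 2 and 3 and none in the others.

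Of the ETS factor genes only Etv5 had a reproducible region in all 4 OE libraries. Etv5, which FGF signalling induces, had 3. The strongest lay inside the gene (chr16:22400919-22404825) with folds of 44.9, 45.5, 67.1 and 20.4 (mean 44.5 ± 19.1, SD, n = 4), and the next, also inside, had a mean of 20.7 ± 5.65. The last lay 145 bp before the start site (chr16:22438327-22441032), with 29.9, 15.7, 18.8 and 20.4. Here OE library 1 was the highest and no library fell below 15.7. Etv4 had 10 and 9 peaks in OE libraries 2 and 3 and none in libraries 1 and 4. Etv1 had 1, 7, 6 and 0.

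Intracellular FGFs bind sodium channels and do not signal through FGF receptors. Of 4 such genes 3 had a region. Fgf14 had 2, both inside its 703 kb body. The better by mean percentile (80.8, chr14:123983271-123983898) had folds of 22.96, 12.7, 8.74 and 15.4 (mean 14.96 ± 6.00, SD, n = 4). The other, at a mean percentile of 61.1, had the higher mean fold, 28.3 ± 25.3, with 8.98, 45.3, 54.5 and 4.42. Fgf12 had 2, with positions 70 bp and 518 bp before start sites of inner transcripts and mean folds of 7.47 ± 4.20 and 10.2 ± 9.09. The first position is the mean of summits spread over 659 bp, and no library's summit lay at it. Fgf11 had 1 (8.70 ± 2.09). Fgf13, on the X chromosome, had 1 peak in OE library 2 and none elsewhere, the fewest peaks of the 35 genes, although its stretch of 694 kb is among the longest.

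**Figure D4:**
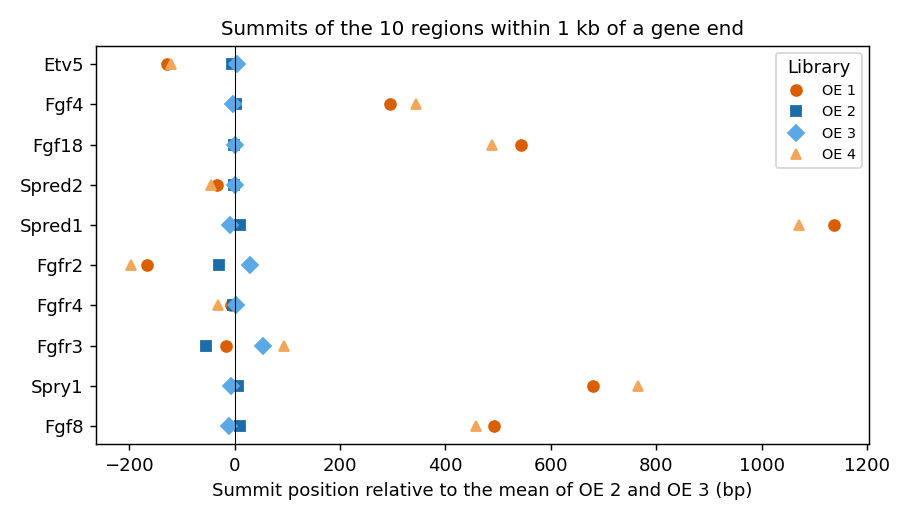
Summit positions of the 4 OE libraries at the 10 FGF gene regions within 1 kb of a gene end, in bp from the mean of OE libraries 2 and 3, along the chromosome. At Spred1, Spry1, Fgf18, Fgf8 and Fgf4 the summits of OE libraries 1 and 4 stand together and apart from those of libraries 2 and 3, which nearly coincide. Etv5, Fgfr2 and Spred2 show the same split over a shorter distance.

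Positions of the 41 regions were sorted by distance to the nearest gene end. Within 1 kb of a gene end lay 10 (24.4%, Wilson 95% interval 13.8% to 39.3%, which covers counting error only), beside 30.9% of all reproducible regions. A further 16 lay deeper inside a gene and 15 outside genes. The 16 include the 2 regions of Fgf12, which overlap the windows before its inner start sites. Of the 10, those at Etv5, Fgf4, Fgf18, Spred1, Spred2, Fgfr2, Fgfr3 and Spry1 were at a start site and that of Fgfr4 at the far end of the gene. Fgf8 has no start site in the table. The share fell to 8.33% with equal list lengths and to 11.7% with OE libraries 2 and 3 alone. It rose to 27.6% with −log10 q of at least 10.

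Summits of the 4 libraries lay closer together far from gene ends than near them in most but not all regions. The median distance between the outermost summits was 286 bp at the 10 regions near gene ends and 54 bp at the other 31. Over all reproducible regions the values were 286 and 56 bp, close to those of the FGF genes. A distance above 100 bp was found at 8 of the 10 (all regions near gene ends 76.7%) and at 9 of the 31 (all others 33.8%). The exceptions near gene ends were Fgfr4 with 33 bp and Spred2 with 47 bp. The widest elsewhere were a region of Fgfr1 with 1539 bp and one of Fgf12 with 659 bp, the latter at inner start sites. Near gene ends, the median distance was 42 bp between OE libraries 1 and 4 and 10.5 bp between OE libraries 2 and 3, but 250.5 bp between the middle of the former and the middle of the latter.

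In the KO libraries the limit of detection lay near the weakest of these regions. At its background, KO library 2 would list a peak from a fold of 3.66 and KO library 3 from 3.61. In OE library 2 the fold was above that of KO library 2 at 40 of 41 FGF gene regions, and in OE library 3 above that of KO library 3 at 40 of 41. The lowest folds, 3.29 and 3.34, were at a Fgf12 region. Weaker enrichment in KO cells would not have been listed.

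Other genes of the pathway, a list of 40 that holds coreceptors, adaptors, kinases, phosphatases and nuclear targets, had a region in 22 cases (55%, beside 30.4% of all genes). Il17rd, which encodes the FGF antagonist Sef, had 3 regions and led the list. Its best region lay inside the gene with folds of 36.4, 78.2, 73.9 and 19.5 (mean 52.0 ± 28.7, SD, n = 4). Dusp7, a MAP kinase phosphatase gene, had 57.4, 9.25, 9.38 and 28.1 at a region 93 bp from the gene. Cic, a repressor relieved by MAP kinase, had 37.4, 9.87, 11.8 and 18.2. Libraries 1 and 4 were the higher at Dusp7 and Cic and the lower, library 4 above all, at Il17rd.

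Mapk3, which encodes ERK1, had a mean fold of 18.7 ± 5.88, and Egr1, an immediate early target, 15.4 ± 10.9 (SD, n = 4 each). Others with a region included Map2k1, Kl, Fgfrl1, Nf1, Plcg1, Dusp6, Flrt1, Gab1, Frs2, Elk4, Ets2, Frs3, Sos1, Hras and Sos2. Dusp6, a phosphatase gene that reports FGF activity in embryos, had 1 region 1780 bp from the gene with a mean fold of 16.5 ± 11.7. Those without a region included Araf, Braf, Nras, Map2k2, Grb2, Ptpn11, Rasa1, Klb, Flrt2, Flrt3, Fgfbp1, Fgfbp3, Dusp4, Dusp9, Elk1, Elk3 and Fos. The KO ChIP libraries had no peak at any of the 40, and the input had 7. The excess over all genes depends on the setting. With equal list lengths 5 of the 40 (12.5%) had a region against 15.8% of all genes, and with summits within 100 bp 6 (15%) against 17.1%, so the share was then below that of all genes. With −log10 q of at least 10 it was 11 (27.5%) against 21.8%.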

How the data were processed

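TWIST1 ChIP-seq peak lists of 7 libraries were analysed. The builds mm10 and GRCm38.p5 and the tools MACS2, Picard, BWA and Trimmomatic are named, per the submitters' processing notes, without order; versions, settings and the control of the caller are not given. Peaks were called per library. The authors' deposited fold enrichment is a linear ratio, and the deposited −log10 p and −log10 q values come from the same caller.

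Peaks on the 21 main chromosomes were read with Python 3.11.15, numpy 2.4.6, pandas 2.3.3 and scipy 1.17.1, and figures drawn with matplotlib 3.10.9. OE peaks sharing at least 1 bp were merged; a region needed all 4 OE libraries and no KO or input peak. Its position is the mean of the libraries' best summits. Pileup and background at a summit were recovered from fold and p, for at least 98.4% of each list, matching −log10 p within 0.05%. Depth is otherwise unknown.

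Genes came from RefSeq GRCm38.p6, whose main chromosomes have mm10 coordinates; 113 protein-coding genes listed on scaffolds, Spry3 among them, were left out. Group tests were exact permutations over libraries. Their p-values reflect only the spread among libraries, for which the study's text speaks of biological replicates. The steps were tested on simulated data.

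The members, the pathway list and the tests were chosen with earlier results of these data known. By the naming rule the first 12 members with a region, ranked by mean percentile of fold, get a value per library, and the first 6 of the pathway list get values, except that some genes of that list are not reported here; Dusp6 was named after its values were seen, as were values per library of some other members. Alternatives covered the q limit, overlap, libraries required, list length, distance and left-out replicates.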

Additional observations from a re-analysis of the deposited data

Results flagged for a closer look

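The fold of the Fgfr3 start-site region was 10.5 in OE library 1 and 5.40 to 5.64 in the other 3 OE libraries, a gap that takes up 0.953 of the whole range of the 4 values, past the 95% limit of Dixon. Among 23 sets of 4 values examined this was the only one past it, and chance gives about 1 in 20. The background of OE library 1 was the lowest of the 4, at 1.00 fragments, and a fold of 10.5 there rests on a pileup of 20 fragments. The part of depth in this value was not tested.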

How the results depend on the processing

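Each count stands beside the share of all genes with a region. With peaks of at least 2 of the 4 OE libraries required, 34 FGF genes had a region (97.1%, all genes 75.3%), with 219 regions, 12.3% of them near gene ends, and 38 of the 40 other pathway genes had one. With OE libraries 2 and 3 alone the values were 34 (all genes 74.7%), 214, 11.7% and 38. With summits within 100 bp (all genes 17.1%) there were 14 FGF genes, 24 regions, 8.33% near gene ends, and 6 pathway genes. With equal list lengths (15.8%) there were 14, 24, 8.33% and 5. Both left the pathway list below all genes. Gene bodies alone (21.3%) gave 22 regions and 13 pathway genes, and −log10 q of at least 10 (21.8%) gave 11 pathway genes. The share near gene ends fell with 2 OE libraries required, with summits within 100 bp and with equal list lengths. It rose to 27.6% with −log10 q of at least 10 and to 27.3% with gene bodies alone. The cause was not tested. Fgf6, Fgf8, Fgf12 and Fgfr3 had no region with −log10 q of at least 10, with summits within 100 bp or with equal list lengths. Leaving out each replicate gave 21 to 23 FGF genes (all genes 30.4% to 41.1%), 40 to 58 regions (58 without OE library 4), 17.2% to 26.8% near gene ends and 21 to 27 pathway genes. It gave an excess of OE over KO of 6.65 to 7.50 in log2 peaks and of 28.0 to 31.3 in genes with a peak. Of the mean folds of single genes 318 stayed within the SD and 11 moved by more; of the region counts of single genes 454 stayed within 1.5 times and 141 did not.

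KO and OE libraries share the numbers 2 and 3. Taken as pairs (replicate block), they gave differences of 8.18 in log2 peaks and 34.5 in genes with a peak, with an exact sign-flip p of 0.5, the smallest for 2 pairs. Both KO values are 0, so whether the numbers pair the libraries could not be checked. The block changed no call. Read depth is not given, and the 2 shallow OE lists limit which regions count as reproducible.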

Other observations

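Summits near start sites were compared with E-boxes over all genes, a comparison chosen after the FGF start sites had been seen. In 4091 start-site windows (250 bases before to 50 after) under a reproducible region, 16.9% of positions lay within 25 bp of a CANNTG. Of the summits of OE libraries 2 and 3 in these windows, 50.8% of 1317 and 49.1% of 1387 lay that close. For OE libraries 1 and 4 it was 25.7% of 1138 and 26.6% of 1150. Over these windows summits of OE libraries 2 and 3 thus lay that close more often, as at Etv5 and Spry1. This was not so at Fgfr2 or the inner start sites of Fgf12. At Fgf4 these summits were nearer than those of libraries 1 and 4 but, at 38 and 33 bp, outside the 25 bp. For CACCTG (or CAGGTG), the form at Fgf4, the share of positions was 4.59% and the shares of summits were 8.96%, 20.6%, 19.5% and 9.83% in OE libraries 1 to 4. For CATCTG (or CAGATG), found at Etv5, it was 2.23% against 6.85%, 13.2%, 11.3% and 6.78%. For CAGCTG, the form nearer to the Etv5 summits, it was 3.25% against 8.61%, 13.1%, 12.8% and 7.91%. The shares for CACGTG were lower, with 2.21% of positions against 2.55%, 4.71%, 5.05% and 2.70%. CATATG had 0.244% against 0.0879%, 0.683%, 0.577% and 0.174%. Windows that overlap share bases and summits, so these shares are descriptions without a test.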
